A study of Drosophila melanogaster with 16 samples.

Results

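This comparison set 4 normoxic *dmDys* flies against 4 normoxic WT flies, 8 of the 16 single whole flies of the series, and asked what lowering dystrophin does to the transcriptome when oxygen is not limiting. Members were taken by their titles: *dmDys* replicates 6, 7, 8 and 10 and WT replicates 2, 3, 5 and 6. The *dmDys* flies carried the construct UASdmDysC-term, an RNA interference hairpin directed at all dystrophin isoforms, driven in every tissue by P-tub-Gal4 (a tubulin promoter driver). The WT flies carried the P-tub-Gal4 driver and no UAS construct, so a hairpin without a target was not among the groups. The labels of both groups give adults of 3 to 5 days of age and 2 weeks in room air, without saying when in those weeks the age was taken. Each fly was 1 array, and nothing in the labels ties a fly to a vial or cross, so p-values measure the spread between single flies. The other 8 flies had the same genotypes by their titles and lived in chronic hypoxia (CH-*dmDys* and CH-WT). They appear here only as levels beside those of the normoxic flies. The letters CH also stand in the source name of each normoxic *dmDys* fly, against the titles and treatment fields, which were followed.

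Dystrophin is a long cytoskeletal protein under the muscle membrane. It ties actin to dystroglycan, sarcoglycans, dystrobrevin and syntrophins, and dystroglycan in turn holds the extracellular matrix once the enzymes of O-mannosylation have added its sugars. *Drosophila* has 1 gene for most parts of this complex, and loss of the complex is known in flies for muscle degeneration and for wing vein and nervous system defects.

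Levels were log2 intensities of Affymetrix Drosophila Genome 2.0 probe sets, made equal in distribution over all 16 arrays. On this scale the lowest level was 2.00 and the upper quartile 9.64. Many transcripts lay at a floor near 2.13, the lower quartile, where a level has no lower side and a difference is only the distance to the floor. The deposited values of the genotypes had different scales, with upper quartiles of 10.18 to 10.22 in normoxic *dmDys* flies and 9.00 to 9.07 in normoxic WT flies, so genotype and array processing cannot be told apart. WT replicate 5 stood apart from the other flies before any comparison. Its squared correlation with the other WT flies was 0.541 to 0.582, whereas the other WT flies gave a mean of 0.985 and the *dmDys* flies 0.986 among themselves. The median level of 40 testis genes was 2.40 in this fly, 11.17 to 11.52 in the other WT flies and 11.57 to 11.90 in *dmDys* flies. Genes of the male accessory gland had medians of 13.47 to 14.24 in all 8 flies, and 19 of 24 genes of eggs and yolk lay under 4 in every fly. Results are therefore given with and without WT replicate 5. The 3' minus 5' level of control transcripts, which grows as RNA is degraded or amplified from the 3' end, was 9.25 ± 1.24 (SD, n = 4) in *dmDys* and 7.68 ± 0.56 (SD, n = 4) in WT flies (difference 1.57, p = 0.114 in an exact permutation test, two-sided, which could not go below 0.029).

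Of 18907 probe sets tested, 1529 (8.09%) were called, that is, they had a limma adjusted p under 0.05 and a difference of at least 2-fold. Of these, 613 (3.24% of those tested) were higher and 916 (4.84%) lower in *dmDys* flies. The median log2 difference over all probe sets was -0.002. At an unadjusted p under 0.05 there were 5791. With each gene represented by its brightest probe set, 522 of 11986 genes (4.36%) rose and 762 (6.36%) fell, and these shares are the background for the gene lists. Without WT replicate 5 the calls numbered 2742 (14.5%), 1384 higher (7.32%) and 1358 lower (7.18%), and 1441 were shared with the calls of all 8 flies in the same direction. The scale decided much of the direction: 40.1% of calls were higher after normalization over all arrays and 79.0% in the values as deposited, with 6.04% after centring each array on its 75th percentile. The groups did not overlap for 54.9% of all probe sets, many of them at the floor and apart by small fractions of a unit, so a gap between groups is stated below only with its values.

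The knocked-down transcript itself overlapped between groups. The brightest Dys probe set read 9.10, 7.00, 5.54 and 6.72 in *dmDys* replicates 6, 7, 8 and 10, and 8.61, 8.42, 10.41 and 8.10 in WT replicates 2, 3, 5 and 6 (all further values follow this order). In *dmDys* flies 3 of the 4 levels lay below every WT fly, whereas *dmDys* replicate 6 lay above all but WT replicate 5. The log2 difference was -1.79 (standard error 0.88, limma adjusted p = 0.240) and -1.29 without WT replicate 5 (adjusted p = 0.268). The other 4 Dys probe sets were at or near the floor in both groups, between 2.11 and 2.95.

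Of 11 measured genes of the dystrophin complex and its O-mannosylation enzymes, 3 fell and none rose, with a median log2 difference of -1.11 (-0.71 without WT replicate 5). Scgbeta, a sarcoglycan, read 4.44, 3.78, 3.47 and 3.42 in *dmDys* flies and 5.96, 6.01, 7.59 and 5.98 in WT flies. Every *dmDys* fly was below every WT fly, and the log2 difference was -2.61 (standard error 0.45, limma adjusted p = 0.012). Scgalpha, another sarcoglycan, lay close to the floor in *dmDys* flies, at 2.96, 2.67, 2.57 and 2.55, against 4.47, 4.77, 7.01 and 4.41 in WT flies. Its difference of -2.48 (adjusted p = 0.038) lost the call without any 1 of the flies other than WT replicate 5, with adjusted p from 0.056 to 0.106. The O-mannosyltransferase gene tw fell by 1.11 from a WT level that was itself dim (2.89 to 4.13), and its call was lost without any 1 of the 8 flies. Its partner rt differed by -1.56 (adjusted p = 0.062) and passed the test without WT replicate 5 (-1.11, adjusted p = 0.003). Dyb, the dystrobrevin, differed by -1.11 (adjusted p = 0.162), the syntrophin Syn2 by -1.20 (adjusted p = 0.221) and Dg, dystroglycan, by 0.09 (adjusted p = 0.939). WT replicate 5 was the highest fly for Dys, Dg, Dyb, Syn2, Scgalpha, Scgbeta, rt and tw. No call of the complex remained with the 3' minus 5' level as a covariate.

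Of 25 measured muscle structure genes, 9 were called lower and none higher, and all 25 had a negative difference, with a median of -0.73. The median over the list was 12.79, 12.57, 13.08 and 12.86 in *dmDys* flies and 13.79, 14.06, 14.32 and 13.98 in WT flies, so the groups did not overlap. The size depended on the scale, and in the deposited values the median was -0.07 and 2 genes were called lower. With the 3' minus 5' level as a covariate 4 were called lower. Msp300, a nesprin that links nuclei to the muscle cytoskeleton, read 10.17, 9.99, 9.69 and 10.09 in *dmDys* flies and 11.78, 12.11, 12.96 and 12.21 in WT flies (log2 difference -2.28, standard error 0.26, limma adjusted p = 0.003). It was called under each alternative scale and without each fly in turn. Act88F, the actin of the indirect flight muscles, read 12.20, 11.85, 13.30 and 12.60 against 13.88, 14.52, 14.45 and 14.61 (difference -1.88, adjusted p = 0.014, a call lost with that covariate). Strn-Mlck, which encodes the giant kinase-related protein stretchin, fell by 1.75 (adjusted p = 0.003), and the flight muscle thick filament protein gene fln fell by 1.90 (adjusted p = 0.022), a call lost without WT replicate 3 or 6 or *dmDys* replicate 6, 7 or 10 (adjusted p 0.053 to 0.068). The other called members were the troponin C gene TpnC41C, the muscle actin gene Act79B, the LIM protein gene Mlp84B, the obscurin gene Obsc and up, which encodes troponin T, with differences from -1.05 to -1.52. Obsc lost its call without any 1 fly other than WT replicate 2 and up without any 1 of 6 flies (adjusted p up to 0.125 and 0.090), and both lost it with the covariate, a floor at 4 and the deposited scale. Without WT replicate 5, where both fell short of 2-fold, 7 calls were left, and the count ranged from 6 to 10 as each fly was left out. In whole flies, less muscle and less RNA per muscle cell cannot be told apart.

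**Figure D1:**
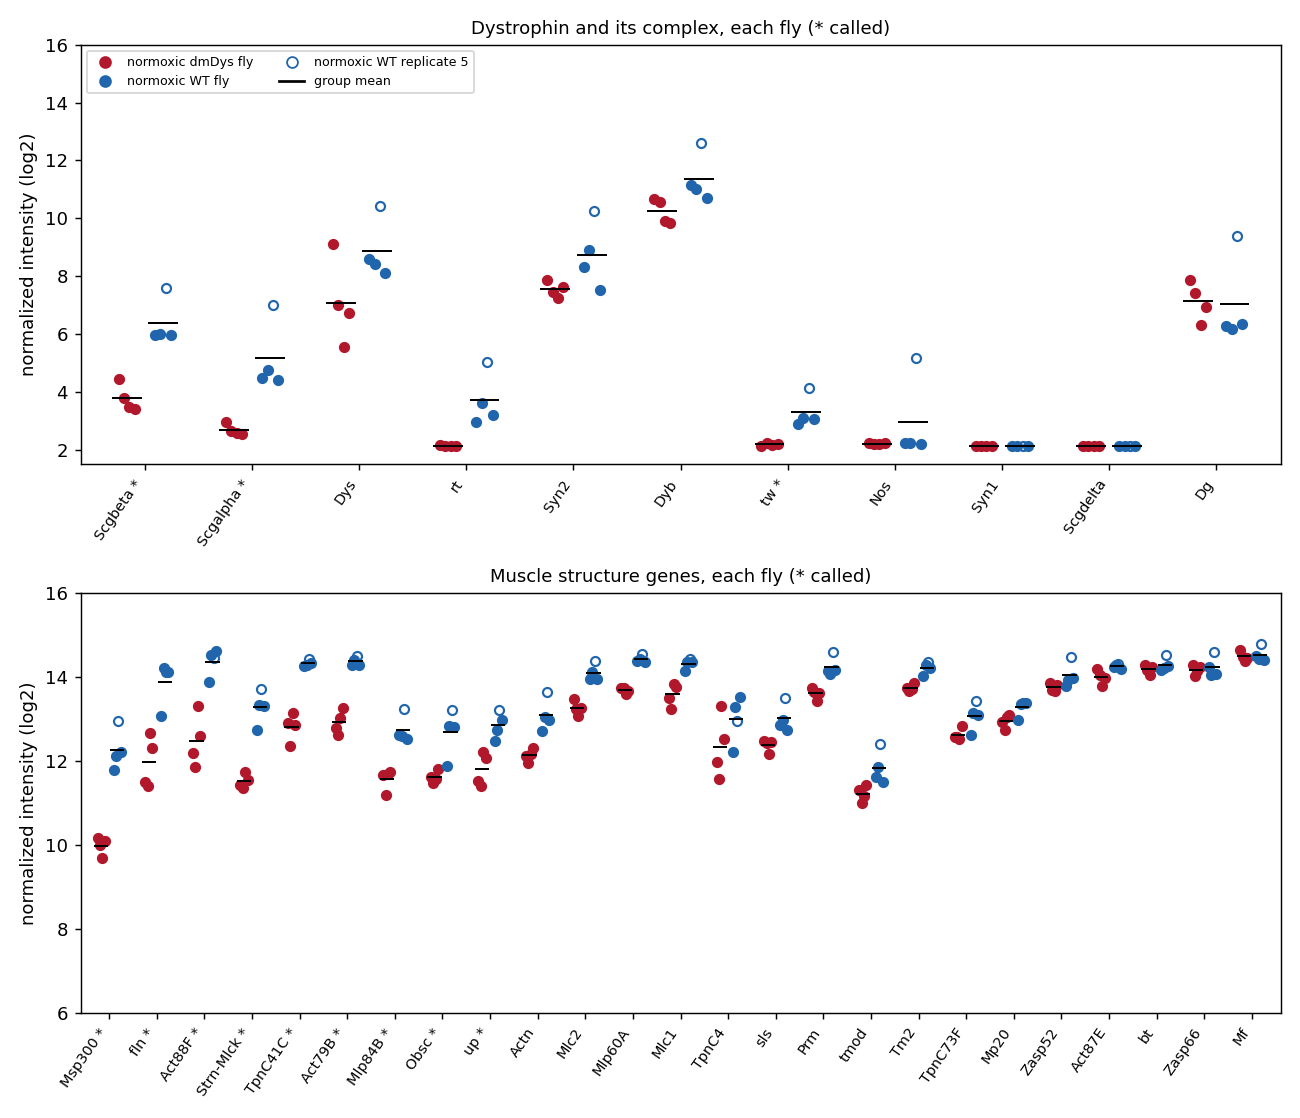
Normalized intensity (log2) of the dystrophin complex genes (top) and of 25 muscle structure genes (bottom) in each of 8 flies, ordered by the difference between groups, with lines at group means and open circles for WT replicate 5. All 25 muscle genes have a lower mean in normoxic *dmDys* flies, whereas for Dys the level of *dmDys* replicate 6 (9.10) lies among the WT flies.

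Of 22 attachment and matrix genes, 3 were called lower, 1 higher and 18 neither (median -0.59 here and 0.43 in the deposited values). Ndg, which encodes the basement membrane protein nidogen, read 3.01, 3.70, 3.44 and 3.05 in *dmDys* flies and 6.92, 7.86, 8.72 and 8.05 in WT flies, a log2 difference of -4.59 (limma adjusted p = 0.00088). Vinc, the vinculin gene, fell by 2.09 (adjusted p = 0.007, lost with the 3' minus 5' level as a covariate), and pot, which encodes an apical matrix protein, fell by 3.93 (adjusted p = 0.004). Tig, the gene of the integrin ligand tiggrin, rose by 3.55 (adjusted p = 0.002) and read 8.57 to 10.19 in *dmDys* flies against 5.60 to 6.56 in WT flies. Of 16 calcium handling genes, cac, a voltage-gated calcium channel subunit, fell by 2.32 (adjusted p = 0.008), as did the calcineurin subunit gene CanA-14F by 4.25 (adjusted p = 0.014) from 5.39 to 8.95 in WT flies to 2.39 to 2.42 in *dmDys* flies. The other 14 were not called. Neither calcium gene was called with the 3' minus 5' level as a covariate, and CanA-14F was not called with a floor at 4.

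Inducible heat shock genes were much higher in normoxic *dmDys* flies. These chaperones are made when proteins unfold. Of 16 probe sets for them, 10 rose and none fell, with a median log2 difference of 1.64 (1.76 without WT replicate 5, and 2.49 and 1.34 under the other scales). With the 3' minus 5' level as a covariate 9 rose. Several probe sets cannot separate the near-identical Hsp70 copies. Each probe set was counted, so the same copies enter the count more than once. The list median was 12.95, 13.03, 13.15 and 13.08 in *dmDys* flies and 10.37, 10.22, 10.43 and 10.13 in WT flies. The small heat shock gene Hsp26 read 14.03, 14.08, 14.13 and 13.96 in *dmDys* flies against 10.23, 10.37, 10.57 and 10.31 in WT flies. That is 12.8-fold, or a log2 difference of 3.68 (standard error 0.08, limma adjusted p = 1.8e-05). Hsp68 was just as even, with 13.76, 13.97, 13.87 and 13.90 against 10.27, 10.07, 10.40 and 9.94, or 13.1-fold (log2 difference 3.71, adjusted p = 2.8e-05).

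The Hsp70 genes had wider steps. The probe set of Hsp70Aa and Hsp70Ab read 14.31, 14.50, 14.57 and 14.65 in *dmDys* flies and 10.47, 9.53, 10.46 and 9.24 in WT flies (24.0-fold, limma adjusted p = 0.00037). The brighter probe set shared by Hsp70Ba, Hsp70Bb, Hsp70Bbb and Hsp70Bc was 34.1-fold higher (adjusted p = 0.00022), and another, of Hsp70Bb and Hsp70Bc, rose from 5.99 to 7.90 in WT flies to 12.72 to 13.08 in *dmDys* flies, or 82.3-fold (adjusted p = 0.00044). A dim probe set of the same Hsp70B copies, at 3.10 to 3.56 against 2.12 to 2.26, was called as well, and lost the call with a floor at 4 and after centring on the 75th percentile. One of the probe sets shared by Hsp22 and CG4456 rose by 3.45 (adjusted p = 0.00085), Hsp23 by 2.49 (adjusted p = 0.001) and Hsp27 by 2.15 (adjusted p = 0.00018). The gene stv, whose product is a co-chaperone of Hsp70, rose by 1.11 (adjusted p = 0.013), a call that fell short without WT replicate 6. The 6 probe sets not called were 3 of the small heat shock gene l(2)efl, 1 of Hsp67Bc (difference -0.10, adjusted p = 0.928), a probe set that Hsp70Bb and Hsp70Bc share with CG31343, and the other probe set of Hsp22 and CG4456, at 11.75 to 12.19 in *dmDys* flies and 12.20 to 12.28 in WT flies other than replicate 5 (7.97). None of 23 other chaperone genes was called in either direction by limma (9 had an unadjusted p under 0.05, and 1 was called without WT replicate 5), with a median difference of 0.48. In the deposited values 13 of them were called higher.

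**Figure D2:**
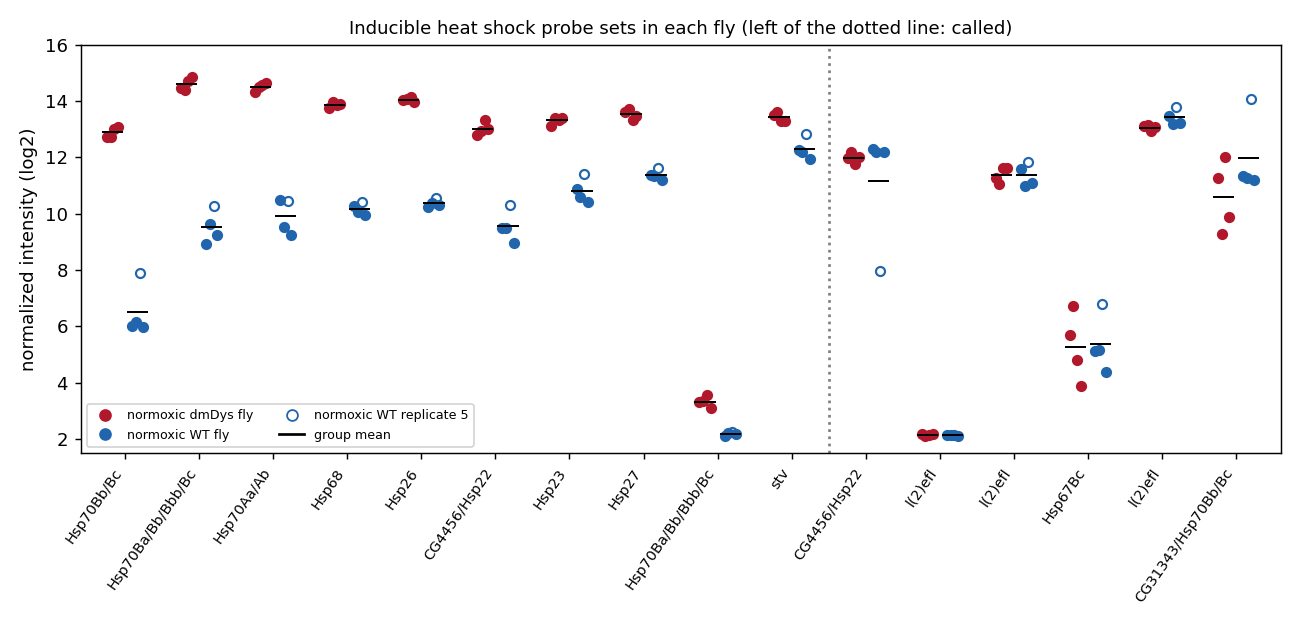
Normalized intensity (log2) of 16 inducible heat shock probe sets in each fly, with lines at group means and the 10 called probe sets left of the dotted line. *dmDys* flies sit close together and above all WT flies for the called probe sets, for example at 13.96 to 14.13 against 10.23 to 10.57 for Hsp26.

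Most of the largest falls were of cuticle genes. The adult cuticle is chitin with proteins of the Cpr family, and it is laid down and tanned in the first days of adult life. Of 43 measured genes for cuticle proteins and chitin, 13 fell and 3 rose, and 13 of the 43 lay under 4 in all flies. With the 3' minus 5' level as a covariate 8 were called lower and 4 higher. Cpr62Bc, a Cpr family protein gene, read 2.17, 2.14, 2.14 and 2.14 in *dmDys* flies and 11.08, 13.63, 11.64 and 13.14 in WT flies. The log2 difference of -10.23 (standard error 0.59, limma adjusted p = 0.0002) is the distance from WT to the floor. Acp65Aa, an adult cuticle protein gene, lay at 2.11 in each *dmDys* fly and at 8.96, 14.15, 9.64 and 14.01 in WT flies (difference -9.58, adjusted p = 0.005), so that WT flies were themselves spread over more than 5 units, with replicates 2 and 5 low and replicates 3 and 6 high. The same split among WT flies was seen for Cpr62Bc, Cpr92F and Cpr97Eb.

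Of the enzymes of chitin, the chitin synthase gene kkv read 3.72, 5.14, 3.18 and 3.69 in *dmDys* flies against 9.75, 11.93, 10.92 and 11.71 in WT flies (difference -7.15, limma adjusted p = 0.00096), and the chitinase gene Cht7 fell by 7.84 (adjusted p = 0.001). Of the 12 largest falls named, all 12 had a *dmDys* mean under 4, and besides these they held Vajk3 (-10.02), CG7214 (-9.74), Vajk2 (-9.21), CG8736 (-8.69), Cpr92F (-8.55), Cpr97Ea (-7.81), CG13311 (-7.75) and the nuclear receptor gene Hr38. The 3 called higher in the list were the chitinase-like growth factor genes Idgf2 and Idgf5 and the chitinase gene Cht9, by 1.03 to 1.46. None of the 3 was called with a floor at 4, Idgf2 lost its call without any 1 of 7 flies (adjusted p up to 0.112) and Idgf5 without *dmDys* replicate 8. Over all 105 measured genes of the Cpr, Twdl, Vajk and related cuticle families, a list chosen after its values were seen, 14 fell and 4 rose, and 70 lay under 4 in all flies. Those that rose were Cpr67B, which read 7.79, 7.92, 8.20 and 8.18 in *dmDys* flies and 3.00, 2.98, 3.89 and 2.91 in WT flies (difference 4.83, adjusted p = 0.00014), Twdlalpha (4.32), Cpr73D (1.88) and Cpr47Ee (1.57).

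**Figure D3:**
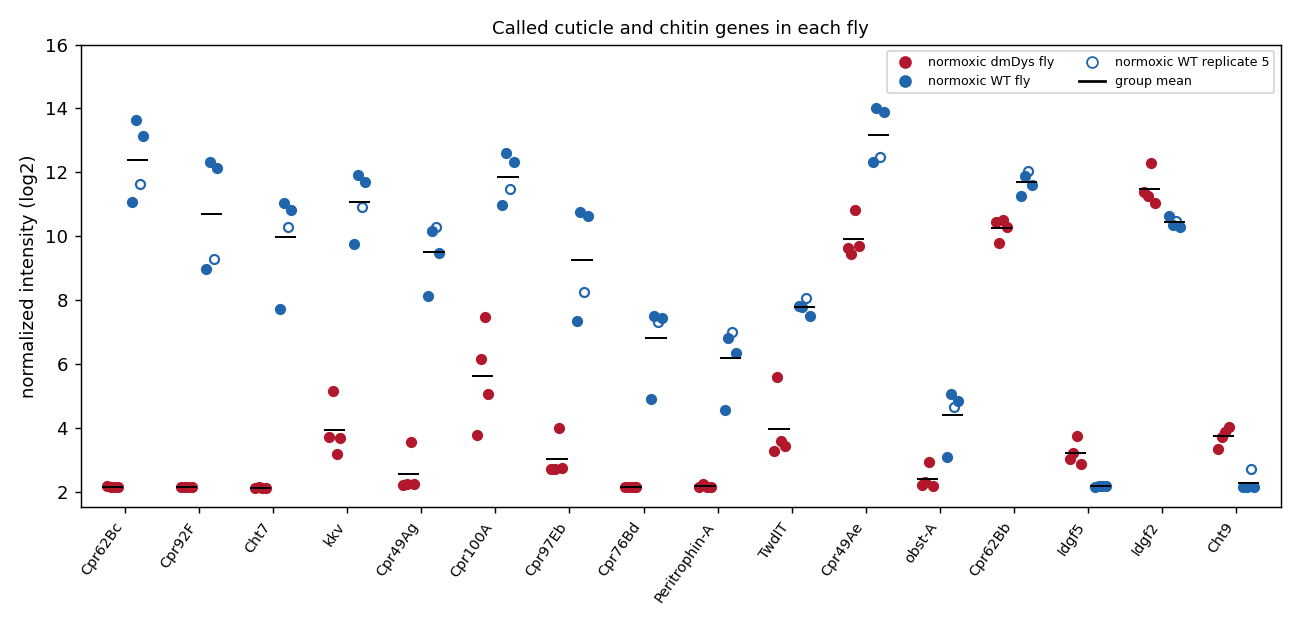
Normalized intensity (log2) of the 16 called cuticle and chitin genes in each fly, with lines at group means and open circles for WT replicate 5. For Cpr62Bc, Cpr92F and Cht7 all 4 *dmDys* flies lie at the floor near 2.13, whereas WT flies range from 7.72 to 13.63.

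Of 17 genes of eye pigment and body colour, 7 were called lower, none higher and 10 neither (median -0.69, and -0.08 in the deposited values). Without WT replicate 5, 7 were lower and 2 higher, and with the 3' minus 5' level as a covariate 3 were lower, with ple, st, carnation and ebony among those lost. The gene ple encodes tyrosine hydroxylase, the first enzyme of dopamine and melanin synthesis, and read 2.84, 2.46, 2.33 and 2.69 in *dmDys* flies against 5.91, 6.91, 9.54 and 6.23 in WT flies (difference -4.57, limma adjusted p = 0.012). The pigment transporter gene bw fell by 5.13 to 2.74 to 2.93 in *dmDys* flies (adjusted p = 0.002), and its relative st fell by 2.06 (adjusted p = 0.008). The others were the genes ebony, pink, carnation and orange, and the call of ebony was lost without any 1 of 6 flies. Of 18 eye genes none was called by limma (5 had an unadjusted p under 0.05, and none was called without WT replicate 5).

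Of 17 measured blood cell genes, 4 were called higher, none lower and 13 neither, with a median difference of 0.22, and 5 lay under 4 in all flies. Without WT replicate 5 there were 6 higher, and with the 3' minus 5' level as a covariate 3, srp being lost. Hml, which encodes the clotting protein hemolectin of plasmatocytes, read 9.14, 9.30, 10.90 and 9.67 in *dmDys* flies and 3.88, 3.45, 4.30 and 3.39 in WT flies (log2 difference 6.00, standard error 0.44, limma adjusted p = 0.00046). PPO1, the prophenoloxidase of crystal cells, read 6.94, 7.45, 10.09 and 6.89 against 2.13 to 2.14 (difference 5.71, adjusted p = 0.004). The GATA factor gene srp rose by 2.38 (adjusted p = 0.009) and fon, a gene of the clot, by 2.09 (adjusted p = 0.015). Each of these 4 groups of *dmDys* values lay above all WT values. More blood cells and more RNA per cell cannot be told apart here either.

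Only some of the immune genes were called. Drsl4, a drosomycin-like peptide gene, lay at the floor in each WT fly. It read 9.03, 10.48, 11.53 and 10.64 in *dmDys* flies against 2.15 (a difference of 8.27 from the floor, limma adjusted p = 0.00023). Drsl5 rose by 4.19 (adjusted p = 0.021), a call lost without WT replicate 6 or any 1 *dmDys* fly (adjusted p 0.055 to 0.068) and with the covariate, and the other 12 of 14 antimicrobial peptide genes were not called (list median -0.39). Among 30 genes of immune recognition and signalling, GNBP3, whose product binds fungal glucan, rose by 4.07 (adjusted p = 0.006) and GNBP2 by 1.22 (adjusted p = 0.024, lost without any 1 fly other than WT replicate 5), whereas Tep3, a thioester protein gene, fell by 1.98 (adjusted p = 0.00057) and Dif, a Toll pathway factor gene, by 1.53 (adjusted p = 0.001). In all, 2 of the 30 were called higher and 2 lower, beside 4.36% and 6.36% of all genes. Without WT replicate 5, 8 of the 30 were higher and 2 lower, beside 7.32% and 7.18% of all probe sets.

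Genes of amino acid metabolism were called in both directions. Gnmt, which encodes the glycine N-methyltransferase that consumes S-adenosylmethionine, read 9.58, 9.86, 10.39 and 8.57 in *dmDys* flies and 3.67, 3.03, 2.82 and 3.63 in WT flies (log2 difference 6.31, standard error 0.43, limma adjusted p = 0.00036). AsnS, asparagine synthetase, read 7.81, 8.40, 10.75 and 8.96 against 2.51, 2.43, 6.72 and 2.12 (difference 5.53, adjusted p = 0.027), and without WT replicate 5 the difference was 6.63 (adjusted p = 0.001). With all 8 flies the call of AsnS was lost on leaving out any 1 other fly (adjusted p 0.055 to 0.079). Amino acid metabolism had 29 measured genes, 3 called higher and 5 lower, beside 4.36% and 6.36% of all genes. Without WT replicate 5 the counts were 7 and 4, beside 7.32% and 7.18% of all probe sets. With the 3' minus 5' level as a covariate they were 2 and 1, and in the deposited values 12 and 2. Among the 5 lower was Oat, ornithine aminotransferase, which fell by 2.63 (limma adjusted p = 0.00037).

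Akh, the gene of the adipokinetic hormone that mobilises fat and sugar stores, read 10.63, 10.44, 10.52 and 9.94 in *dmDys* flies and 8.06, 2.41, 5.80 and 2.76 in WT flies. The *dmDys* flies were alike and the WT flies were spread over more than 5 units, and the difference of 5.63 (limma adjusted p = 0.031) lost its call without any 1 *dmDys* fly or without WT replicate 3 or 6 (adjusted p 0.072 to 0.086). The maltase gene Mal-B1, which like Akh was not called with the 3' minus 5' level as a covariate, rose by 5.68 (adjusted p = 0.007), with 7.93 to 9.90 in *dmDys* flies against 2.74 to 5.84 in WT flies. Of 22 storage and fat body genes, 2 rose (Akh and tobi), 2 fell and 18 were not called (median 0.17), beside 4.36% and 6.36% of all genes. Without WT replicate 5, 4 rose and 2 fell. The gene tobi read 3.57 to 7.24 in *dmDys* flies and 2.13 in WT flies. Its call was lost without any 1 of 5 flies (limma adjusted p 0.078 to 0.095), with the covariate and with a floor at 4. The 2 that fell encode larval storage proteins, which are made by the fat body before adulthood, and lay at or near the floor in *dmDys* flies. Lsp1beta averaged 2.26 ± 0.05 in *dmDys* and 7.99 ± 0.49 in WT flies (SD, n = 4, difference -5.73, adjusted p = 7.3e-05), and Lsp2 read 2.11 to 2.16 against 5.21 to 8.46 (difference -4.87, adjusted p = 0.004).

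Among 149 detoxification genes, 11 were higher and 7 lower, beside 4.36% and 6.36% of all genes. Without WT replicate 5 the counts were 29 and 10, beside 7.32% and 7.18% of all probe sets. With a floor at 4 they were 3 and 3, and with the 3' minus 5' level as a covariate 13 and 2. The cytochrome P450 gene Cyp6w1 rose by 5.55 (limma adjusted p = 0.008), and Cyp6a18 fell by 5.89 (adjusted p = 0.00091) to 2.20 to 3.56 from 7.99 to 10.01 in WT flies. GstE14, a glutathione transferase gene needed for ecdysone synthesis, read 2.52, 2.26, 2.29 and 2.26 in *dmDys* flies and 7.33, 7.62, 8.38 and 7.47 in WT flies (difference -5.37, adjusted p = 8.6e-05). Of 22 antioxidant and metal genes, Cat, catalase, rose by 1.43 (adjusted p = 0.042) and the metallothionein gene MtnC by 1.03 (adjusted p = 0.048). Cat lost its call without any 1 of 5 flies and MtnC without any 1 of 7, with adjusted p up to 0.126. No gene was called by limma among 24 of oxidative phosphorylation (16 at an unadjusted p under 0.05, and 2 called higher without WT replicate 5), 12 of glycolysis (2, and 1 lower), 14 of the hypoxia response (2, and 1 higher) and 36 of ribosomal proteins (17, and 1 higher). In the deposited values 4, 2, 3 and 13 genes of these lists were called higher.

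A small number of regulators and neuropeptides fell, in lists where most members were not called. Of 17 juvenile hormone and ecdysone genes, 2 fell (Hr38 and ftz-f1) and none rose. The call of ftz-f1 was lost without any 1 fly other than WT replicate 5 (limma adjusted p 0.065 to 0.125). It was also lost with the 3' minus 5' level as a covariate and with a floor at 4. Of 13 circulating and gut peptide genes, 1 fell (Lk) and 1 rose (Akh). Of 4 genes listed with the dawn side of the clock, 1 fell (Pdf), and without WT replicate 5, 2 fell and 1 rose. Over all genes 6.36% fell and 4.36% rose. Hr38, the only *Drosophila* nuclear receptor of the NR4A group, read 2.27, 2.42, 2.43 and 2.32 in *dmDys* flies against 10.48, 9.65, 11.29 and 9.60 in WT flies (log2 difference -7.90, standard error 0.39, limma adjusted p = 0.00013). The clock gene tim read 11.76, 11.37, 10.07 and 10.59 against 13.34, 13.22, 14.07 and 12.85 (difference -2.42, adjusted p = 0.014), a call lost without *dmDys* replicate 10 (adjusted p = 0.050). Pdf, the neuropeptide of clock neurons, fell by 3.04 (adjusted p = 0.015), and Lk, the diuretic peptide leucokinin, by 2.29 (adjusted p = 0.016, and 0.055 without *dmDys* replicate 6). Neither peptide gene was called with the 3' minus 5' level as a covariate, nor Pdf with a floor at 4. The other 4 genes whose transcripts peak near dusk were not called, but without WT replicate 5 vri and cwo, which encode transcriptional regulators of the clock, were called higher and tim lower. The hour at which flies were taken is not given in the sources used here.

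In the machinery that a hairpin uses, 1 of 19 RNA interference genes was called, beside 4.36% of all genes called higher and 6.36% lower. The list median was -0.71 (0.0 without WT replicate 5, where 2 were called higher). Dcr-2, the Dicer that cuts long double-stranded RNA, read 5.99, 6.01, 6.43 and 6.51 in *dmDys* flies and 4.03, 3.24, 5.48 and 3.44 in WT flies (log2 difference 2.19, limma adjusted p = 0.031). The call was lost without any 1 fly other than WT replicate 5 (adjusted p 0.074 to 0.095) and with the 3' minus 5' level as a covariate, and without that fly the difference was 2.67 (adjusted p = 0.0007). Of 31 proteasome genes, 4 rose and none fell (median 0.56), and without WT replicate 5, 4 rose and 1 fell (median 0.34). Prosalpha4T1, also in the testis list, rose by 2.64 and Prosalpha3 by 1.83, with WT replicate 5 the lowest fly for both. Their calls were lost without any 1 of 6 and of 5 flies (limma adjusted p up to 0.103 and 0.080), and with a floor at 4 or the covariate. The subunit gene Prosalpha4 read 9.50, 9.49, 9.53 and 9.49 against 6.40, 6.20, 7.83 and 6.08 (difference 2.88, adjusted p = 0.005) and Rpn3 rose by 2.26 (adjusted p = 0.009, lost with that covariate). In the deposited values 21 of the 31 were called higher.

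Genes of smell and of the male reproductive tract held further rises. Of 47 odorant-binding protein genes, 7 rose and 1 fell, beside 4.36% and 6.36% of all genes. The list median was 0.02, and 20 of the 47 lay under 4 in all flies. Obp56a read 11.68, 13.11, 12.63 and 12.83 in *dmDys* flies and 8.63, 5.69, 4.74 and 6.22 in WT flies (log2 difference 6.24, limma adjusted p = 0.005), Obp19d rose by 2.57 (adjusted p = 0.009), and Obp83g fell by 4.54 to the floor (adjusted p = 0.013). With the 3' minus 5' level as a covariate 3 of the 47 rose and none fell, and these 3 named genes were not called. Of 24 accessory gland genes, which code for seminal fluid proteins, 5 rose and none fell (median -0.07), beside the same shares of all genes. Acp32CD rose by 1.75 (adjusted p = 0.006) and the lectin gene lectin-46Cb by 2.27 (adjusted p = 0.014, lost without *dmDys* replicate 10). With the covariate 2 of the 24 rose, Acp32CD among them. The remaining large rises named were the serpin gene Spn75F, at 10.01 to 11.40 against 4.26 to 5.24 (difference 5.96, adjusted p = 0.0002), and the uncharacterised genes CG2065 (6.13), CG4757 (6.08), CG31205 (5.84) and CG7300 (5.65).

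**Figure D4:**
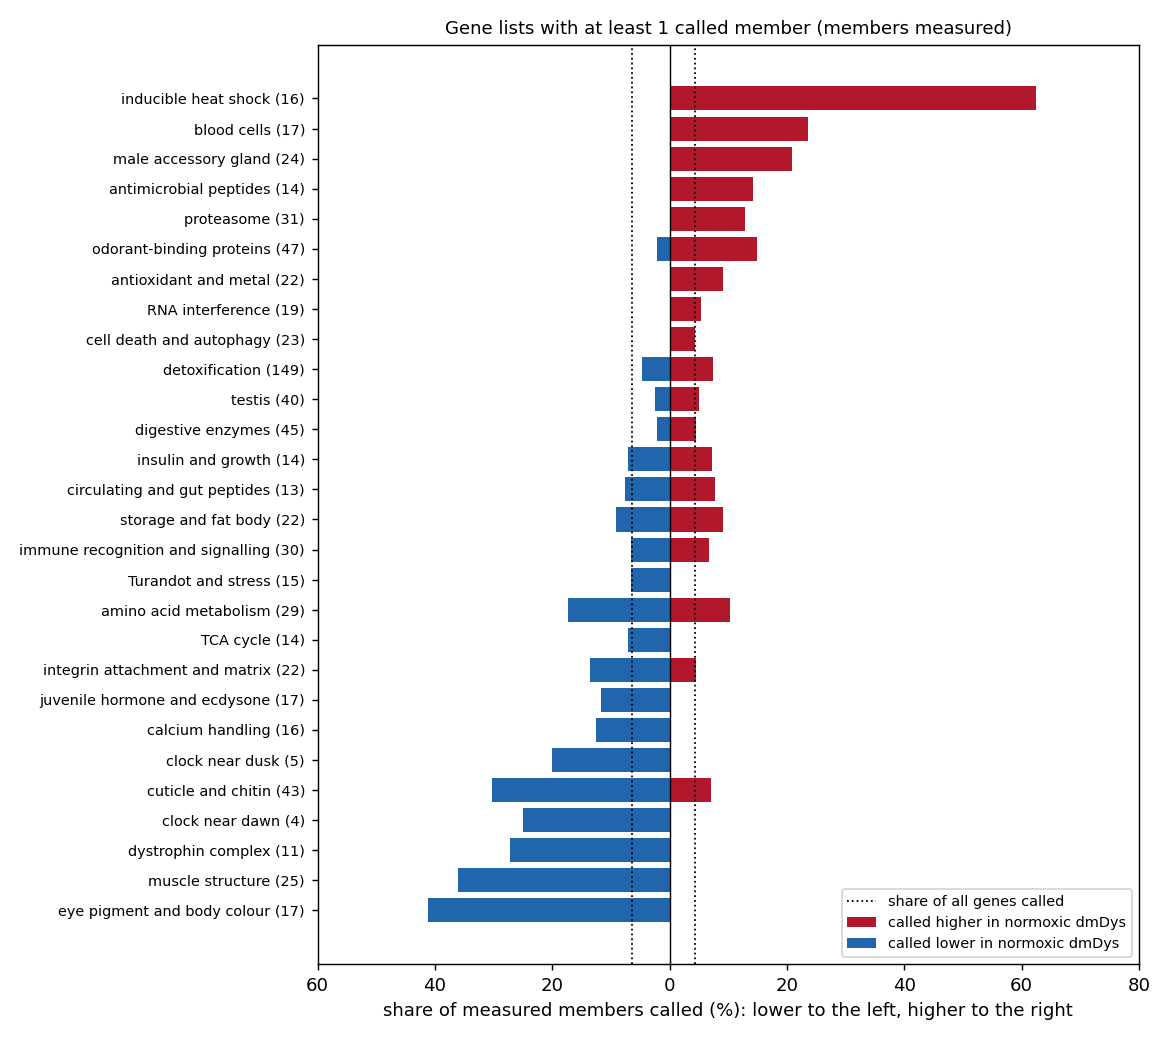
Share of the measured members of each gene list called higher (right) or lower (left) in normoxic *dmDys* flies, in percent, for lists with at least 1 called member. Bars are to be read against the dotted lines, which mark the shares over all genes (4.36% higher and 6.36% lower): inducible heat shock probe sets reach 10 of 16 to the right and muscle structure genes 9 of 25 to the left. The heat shock bar counts probe sets, some of them for the same Hsp70 copies, and over all probe sets the shares were 3.24% higher and 4.84% lower.

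Leaving out WT replicate 5 added 1301 calls. Those named among the added rises included the lysosomal mannosidase genes LManIII, LManV and LManVI and the trypsin gene lambdaTry. LManV read 10.66, 10.21, 12.05 and 10.39 in *dmDys* flies and 7.16, 3.04, 14.15 and 2.60 in WT flies, so WT replicate 5 was the highest of all 8 and the rest of WT the lowest (log2 difference 4.09, limma adjusted p = 0.383, and 6.56, adjusted p = 0.010, without it). CG8329, a serine protease-like gene, read 8.23 in WT replicate 5 and 2.57 to 2.72 in the other WT flies, against 7.35 to 8.39 in *dmDys* flies. The digestive enzyme list, which holds the trypsins, had 10 higher genes of 45 without this fly and 2 with it. Of the added falls, the mitochondrial carrier gene Ucp4B read 2.13 in WT replicate 5, 9.29 to 10.10 in the other WT flies and 5.95 to 6.70 in *dmDys* flies. Over 40 testis genes the median log2 difference was 2.50 with it and 0.06 without it, with 2 higher and 1 lower gene in the first case and 3 of each in the second.

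The same genes were looked at in the 8 flies in hypoxia. These share no fly with the comparison, but share the genotypes named in the titles and the array processing of each genotype. The hypoxia also differed, with a mountain ascent for CH-*dmDys* flies and a chamber for CH-WT flies, and 1 CH-WT fly has *dmDys* in its strain field, so the levels are a description. CH-WT replicate 7 was low for testis genes, as WT replicate 5 was. In it glob2 read 2.10 and Hsp60B 2.12, against 12.17 to 13.01 and 12.48 to 13.20 in the other CH-WT flies. This fly is part of the CH-WT means below, and the shares were not computed without it. Of the 613 probe sets higher in normoxic *dmDys* flies, 477 (77.8%) had a mean at least 2-fold higher in CH-*dmDys* than in CH-WT flies, against 14.7% of all probe sets, and 19 were at least 2-fold lower. Of the 916 lower ones, 768 (83.8%) were at least 2-fold lower there, against 14.1% of all, and 9 higher. For some cuticle genes the genotypes stayed apart in every fly: Cpr62Bc was at 2.16 to 2.18 in CH-*dmDys* flies and at 4.39 to 14.54 in CH-WT flies, and Vajk2 at 2.66 to 2.75 and 5.65 to 14.63. For others CH-WT replicate 6 lay with the CH-*dmDys* flies, at 2.13 for Cpr97Ea and Acp65Aa and 2.41 for Cpr92F, while the other CH-WT flies were at 10.44 or above. The median of the cuticle and chitin list was 2.39 to 2.46 in CH-*dmDys* and 2.46 to 8.25 in CH-WT flies. Hml read 9.56 to 10.62 and 2.11 to 7.17, and Gnmt 13.02 to 13.54 and 2.66 to 8.12.

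Of the heat shock genes, Hsp26 lay at 9.85 to 10.33 in CH-*dmDys* flies and 12.39 to 13.12 in CH-WT flies, and Hsp68 at 8.78 to 9.16 and 12.16 to 12.80. The probe set of Hsp70Aa and Hsp70Ab lay at 2.76 to 4.00 and 12.62 to 13.30. Normoxic *dmDys* flies thus had the highest and CH-*dmDys* flies the lowest levels of the 4 groups for Hsp68 and this Hsp70 probe set. Drsl4, at 2.55 to 3.25 in CH-*dmDys* flies and 2.14 to 2.16 in CH-WT flies, was above 4 in no group other than normoxic *dmDys*. Hr38 was at 2.32 to 3.68 in CH-*dmDys* and 3.60 to 8.30 in CH-WT flies. The 3' minus 5' level was 4.52 to 5.77 in CH-*dmDys* and 4.92 to 7.40 in CH-WT flies.

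**Figure D5:**
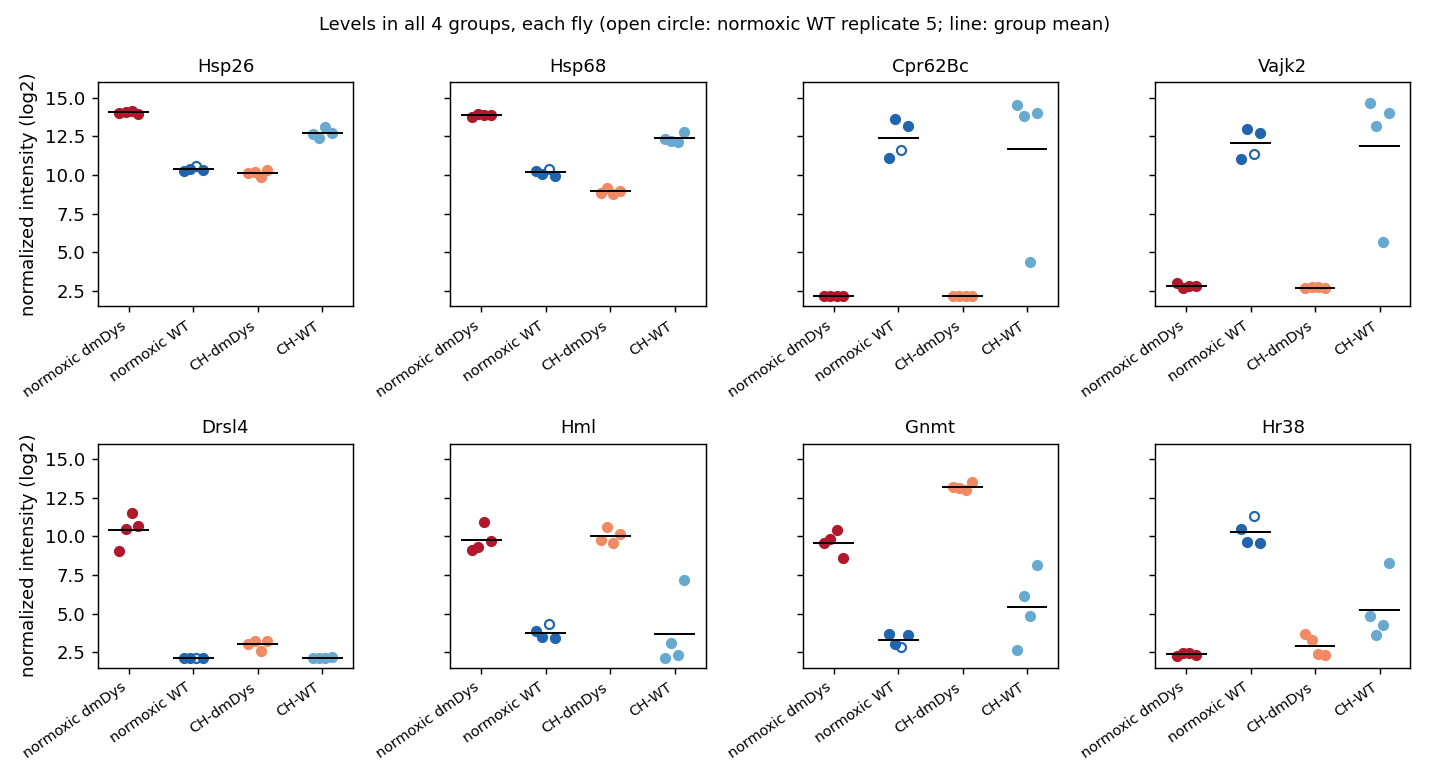
Normalized intensity (log2) of 8 genes in each of the 16 flies by group, with lines at group means and an open circle for WT replicate 5. Hsp26 and Hsp68 are high in normoxic *dmDys* and CH-WT flies, Cpr62Bc and Vajk2 are at or near the floor in both *dmDys* groups, and Drsl4 is bright in normoxic *dmDys* flies alone (9.03 to 11.53).

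Called genes were spread over the genome. By RefSeq annotation of assembly Release 6, the share of measured genes that rose was 4.90% on 2L, 4.04% on 2R, 4.10% on 3L, 4.44% on 3R and 4.54% on X, and the share that fell was 5.31%, 6.80%, 5.80%, 7.26% and 6.51%.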

How the data were processed

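Single whole flies were profiled on Affymetrix Drosophila Genome 2.0 arrays after amplification of RNA with the NuGEN Ovation system. The values deposited by the authors are GCRMA intensity on a linear scale, made in GeneSpring, 1 column per fly with no pooling, and no other files were used. No array carries a detection call, and the number of arrays limits the precision.

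Log2 of the values was quantile normalized over all 16 arrays, since the lowest values differ between genotypes (2.06 and 1.95). After 45 spike-in controls were left out, 18907 probe sets of the 8 normoxic arrays entered limma 3.58.1 (R 4.3.3). A call needed a 2-fold change and, after Benjamini-Hochberg adjustment over all of them, a p under 0.05. The SAM of the methods regroups flies and was not run. The platform annotation gives 1 symbol to 13648 probe sets, several to 401 and none to 4903; Hsp23, Hsp67Bc and Lsp1beta were named from the paper's tables. Lists use the brightest probe set of a gene, except the heat shock list. Named genes were Dys, its complex, heat shock genes, the 12 largest rises and falls with groups that do not overlap, 8 and 8 called only without WT replicate 5, and the 2 to 4 largest of each list; further called members of lists were named after their values were seen. Members and lists were chosen with earlier results of these data known.

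The fit was tested on simulated arrays of this comparison over 18907 probe sets. Changes of 1.5, 3 and 6 log2 units were placed in 67, 67 and 66 probe sets, all with a WT mean above 6. With all 8 flies it called 16.4%, 65.7% and 87.9% of these changes, and 62.7%, 88.1% and 100.0% without WT replicate 5. Changes in dim probe sets and a fly that departs in many genes at once were not simulated, so these shares do not cover them. Alternatives were other scales (deposited, centred on the 75th percentile, quantile over 8 arrays), a fit of all arrays, array weights, trend and robust moderation, a floor at 4, omission of dim or of cross-hybridizing probe sets, calls at any fold, the 3' minus 5' level as a covariate, lists with every probe set of a gene, and each fly left out.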

Additional observations from a re-analysis of the deposited data

Results flagged for a closer look

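In each group of 4 flies, a fly is listed here when its gap to the nearest other fly was larger, as a share of the group's range, than Dixon's critical value. Of 360 groups of values tested, each with a range of at least 0.5, 57 passed. Chance alone would pass about 1 in 20 independent groups, but these groups share flies and genes. Some genes were also named because their call appeared only without WT replicate 5, so the count cannot be set against that rate. Most were WT replicate 5, and no cause was tested.

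In WT replicate 5 the median level of the testis list was 2.40, against 11.17 to 11.52 in the other WT flies, and genes known for testis expression were low with it: glob2 was at 2.10, glob3 at 2.09, Hsp60B at 2.62 and Hsp60C at 2.09. Also low in this fly were CG31609 (2.10), CG43288 (2.07), CG31600 (2.36), CG32983 (2.14), CG34434 (2.43), Ucp4B (2.13), Prosalpha3 (7.97) and a probe set of Hsp22 and CG4456 (7.97). High in it were orb (10.71, against 2.40 to 2.65), CycE (10.14, against 3.00 to 3.60), Rh7 (7.27, against 2.56 to 2.65), CG8329 (8.23), RpL22-like (10.54) and RpS5b (11.08). The gene orb is known for its part in germ cells of the ovary, while the list of eggs and yolk had a median of 2.15 in this fly.

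In the same fly the medians of the dystrophin complex (7.01), calcium handling (12.09), detoxification (7.50), storage and fat body (9.38), RNA interference (8.13) and cell death and autophagy (9.86) lists were high. Of genes of the complex, Scgalpha was at 7.01, Scgbeta at 7.59, Dg at 9.38, Nos at 5.17 and a dim Dys probe set at 2.84. Other high levels were those of ftz-f1 (9.36), Lk (8.44), ScsbetaG (10.35), Oat (7.03), Jon25Bi (12.05), bw (9.54), CG2065 (4.15), AsnS (6.72), Tig (6.56), Mal-B1 (5.84), achi (7.73), a probe set of Hsp70Bb and Hsp70Bc (7.90) and the one they share with CG31343 (14.07).

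In *dmDys* replicate 8 the medians of integrin attachment and matrix (9.96), amino acid metabolism (9.93) and eye pigment and body colour (7.23) were high, as were ebony (7.23), LManVI (13.06), Ance-5 (9.10) and EbpIII (13.97), and Mal-B1 (7.93) and achi (5.07) were low. This fly also had the lowest 3' minus 5' level of its group, 7.43, against 9.52 to 10.14. In WT replicate 2, pot (9.83), fln (13.07) and ebony (7.59) were low and CG7300 (6.69) was high. In WT replicate 3, CG4757 was at 4.00, against 2.10 to 2.13.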

How the results depend on the processing

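Against 1529 calls (613 higher, 916 lower), the deposited scale gave 3504 (2769 and 735), centring on the 75th percentile 10875 (657 and 10218, as it moved the median of all probe sets by -1.194), array weights 2811 (1420 and 1391), a floor at 4 948 (389 and 559), the 3' minus 5' level as a covariate 740 (456 and 284), no fold threshold 3416, and no WT replicate 5 together with a floor at 4, an alternative chosen after seeing the data, 1032 higher. The cause of these differences was not tested. Leaving out 1 fly gave 881 to 2742 calls, 382 to 1384 higher and 499 to 1358 lower, with the lowest counts without *dmDys* replicate 10 and the highest without WT replicate 5. Over brighter probe sets, mean squared correlations were 0.952 within *dmDys* flies, 0.511 within WT flies and 0.574 between them.

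Of 92 named probe sets that were called, 42 kept their call under every alternative. Over 2642 values of named probe sets under alternatives, 222 lost a call, 86 gained one and 3 reversed: after centring on the 75th percentile Syn1 was at -1.25 and an l(2)efl probe set at -1.22, both at the floor, and the dim Hsp70B probe set was at -0.0 without WT replicate 5 and with a floor at 4. The covariate removed 35 calls of named probe sets and the floor 21. No paired analysis was possible because the groups compared share 1 replicate number. Levels near the floor limit the size of 301 falls with a *dmDys* mean under 4 and 230 rises with a WT mean under 4, and 53 calls had both means under 4.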
